A study of Mus musculus with 11 samples.

Results

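The imprinted genes H19, Igf2, Igf2r, Meg3, Peg3, Plagl1, Grb10, Ndn, Gnas and Impact were followed in sorted mouse haematopoietic stem cells. They were taken by symbol, as the entries of the count table whose Ensembl identifier carries that symbol in the GENCODE M21 annotation of GRCm38, and all 10 were found among 49585 entries. The cells were lineage-negative, c-Kit+, Sca-1+, CD48-, CD150+ marrow cells of C57BL/6 mice, divided by surface CD41, an integrin chain of megakaryocytes and platelets. Control mice had received rabbit serum, and the other mice were taken 24 h after their platelets were depleted. The groups were control CD41- (n = 3 libraries), control CD41+ (n = 2), depleted CD41- (n = 3) and depleted CD41+ (n = 3), and each library was made from 1000 cells pooled from 3 mice. The labels give neither the age of the mice nor a genetic change in any group, and a pool of mice shows no spread between single animals.

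Imprinted genes are read mainly from the copy of a single parent in at least some tissues, and many of them set growth before birth. The counts used here do not tell the parental copies apart. In blood stem cells several are known for keeping cells out of the cell cycle. H19, a non-coding RNA, and Igf2, a growth factor, lie side by side and are read from opposite parental copies, and Igf2r binds IGF2 and sends it to the lysosome. Loss of the control region of H19 in mouse stem cells is known to raise IGF2 signalling through the IGF1 receptor and to end quiescence. Meg3, a non-coding RNA of the Dlk1 locus, restrains the PI3K and mTOR pathway in mouse stem cells. Ndn encodes necdin, which binds E2F proteins and p53 and restrains division. Peg3 and Plagl1 encode zinc finger proteins tied to p53 signalling and cell cycle arrest. Grb10 encodes an adaptor that damps insulin and IGF1 receptors, Gnas encodes the stimulatory G protein alpha subunit that drives cyclic AMP, and Impact encodes an inhibitor of the amino acid sensor GCN2.

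The promoter windows of Ndn and Peg3 are shown because these members gave the most regular patterns across the groups. The windows run from 250 bases before to 50 bases after the start site in the RefSeq table for GRCm38.p6, and 8 of the 10 members had at least 1 window there, those without being H19 and Impact. Capitals mark, in Ndn, the core GCATGCGC that NRF1 binds, and in Peg3 the full cyclic AMP response element TGACGTCA. Ndn lies at chr7:62348027-62348326 on the plus strand and Peg3 at chr7:6730370-6730669 on the minus strand.
Ndn promoter: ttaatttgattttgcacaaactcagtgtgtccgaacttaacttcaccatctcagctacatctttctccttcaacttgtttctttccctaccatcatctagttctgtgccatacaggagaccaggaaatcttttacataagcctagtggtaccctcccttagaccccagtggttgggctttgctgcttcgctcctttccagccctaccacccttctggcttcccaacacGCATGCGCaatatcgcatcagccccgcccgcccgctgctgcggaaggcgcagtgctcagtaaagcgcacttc
Peg3 promoter: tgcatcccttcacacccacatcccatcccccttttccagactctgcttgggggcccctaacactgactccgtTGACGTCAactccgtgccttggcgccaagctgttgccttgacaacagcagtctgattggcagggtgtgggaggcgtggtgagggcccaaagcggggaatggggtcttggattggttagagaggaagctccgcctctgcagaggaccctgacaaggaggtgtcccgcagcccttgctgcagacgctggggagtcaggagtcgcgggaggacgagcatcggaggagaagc

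Both motifs were searched on both strands and were picked after the windows had been read. The NRF1 core began at -22 from the Ndn start site, and 2.71% of the 32851 promoter windows in the table held it. The cyclic AMP element began at -178 from the Peg3 start site, and 1.79% of windows held it. A window of Meg3 (chr12:109540746-109541045), a member without a count in any library, also held this element. The Ndn window held 11 CpG dinucleotides and that of Peg3 held 13, against a median of 7 over all windows.

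H19 and Igf2 also carry microRNAs, and these are shown because their seeds, in capitals, set which transcripts they can pair with. miR-675 is cut from an exon of H19 and is known in mouse placenta to restrain Igf1r, and miR-483 comes from an intron of Igf2. All lie on the minus strand of chromosome 7 in GRCm38.p6.
miR-675-5p: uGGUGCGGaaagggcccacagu
miR-675-3p: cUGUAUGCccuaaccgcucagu
miR-483-5p: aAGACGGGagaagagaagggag
miR-483-3p: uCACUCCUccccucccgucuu

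No seed was shared among these RNAs. Mir675 and Mir483 had a count of 0 in every library, and priming at poly(A) does not capture mature microRNAs, so their levels are not known from these data.

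The shallowest library, depleted CD41+ replicate 1, held 0.974 M deposited counts, the deepest, depleted CD41- replicate 1, held 9.95 M, and the median was 3.88 M. A count of 3, used as the floor of detection, was worth 0.302 to 3.08 CPM (counts per 1 M counts of a library) in single libraries. Floors cover counting error only, and PCR copies of a molecule, which carry no identifier here, are counted apart. Levels are given as CPM scaled by TMM library factors. Differences are log2 fold changes ± SE from edgeR quasi-likelihood tests, with Benjamini-Hochberg adjustment over the 13448 genes that passed a filter on low counts and a threshold of 0.05. Of the stem cell markers all 8 had counts in every group, and they made up 0.217% to 0.310% of counts in control CD41-, 0.119% to 0.179% in control CD41+, 0.134% to 0.196% in depleted CD41- and 0.0525% to 0.135% in depleted CD41+ libraries. The 8 megakaryocyte markers made up 0.0616% to 0.108% of counts in control CD41+ against 0.0164% to 0.0282% in control CD41- libraries, and 7 of them, among them Itga2b, which encodes CD41, rose in CD41+ cells on average. After depletion they made up 0.0370% to 0.0559% in CD41+ and 0.0113% to 0.0155% in CD41- libraries, and 5 of the 8 fell with depletion on average. The 12 neutrophil markers made up 0.914% to 1.59% in control CD41-, 2.40% to 7.66% in control CD41+, 0.465% to 3.66% in depleted CD41- and 1.54% to 5.16% in depleted CD41+ libraries. Erythroid, macrophage and lymphocyte markers also made up more of each control CD41+ than of any control CD41- library, with overlap between the depleted groups. In bulk libraries fewer cells that express a gene and less RNA per cell cannot be told apart.

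The members covered a wide range of levels. Per kilobase of annotated exon and over all 11 libraries, Ndn was at 22.2 ± 6.37 RPKM (SD), Gnas at 17.0 ± 2.72, Grb10 at 10.5 ± 4.11, Impact at 6.94 ± 2.28 and Igf2r at 1.44 ± 0.531. Neighbours in this order overlapped within 1 SD down to Impact, and Igf2r stood below. H19 was at 0.626 ± 0.640 RPKM, and Igf2 (0.100), Peg3 (0.0471) and Plagl1 (0.0430) were lower still, while Meg3 had no count. The exon length joins all annotated transcripts, so a gene with long unused exons is placed too low. A model on the opposite strand of the Gnas exons held nearly as many counts (8685 against 9101). The level of Gnas may thus hold only part of its reads, and its place in this order is not settled.

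Of the 10 members, 6 passed the filter (H19, Igf2r, Grb10, Ndn, Gnas and Impact), and H19 did so only through the depleted CD41- libraries. None of these 6 passed the edgeR test in any of the 7 comparisons, and the smallest adjusted p was 0.0726, for Ndn. Across all genes, the CD41 contrast called 2.62% in control mice, 0.193% after depletion and 5.38% when both treatments were averaged. The depletion contrast called 3.19% in CD41- cells, 0.104% in the CD41+ fraction and 6.33% when both fractions were averaged. At an unadjusted p under 0.05 the members that passed numbered 1, 1, 2, 0, 1 and 2 of 6 in that order, where 18.9%, 9.18%, 23.1%, 16.9%, 12.2% and 21.3% of all genes did so. DESeq2 called 1 member, Ndn, in 1 of these comparisons, the CD41 average, and of all genes it called 7.39%, 1.54%, 10.7%, 6.24%, 1.91% and 10.4% in that order.

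**Figure D1:**
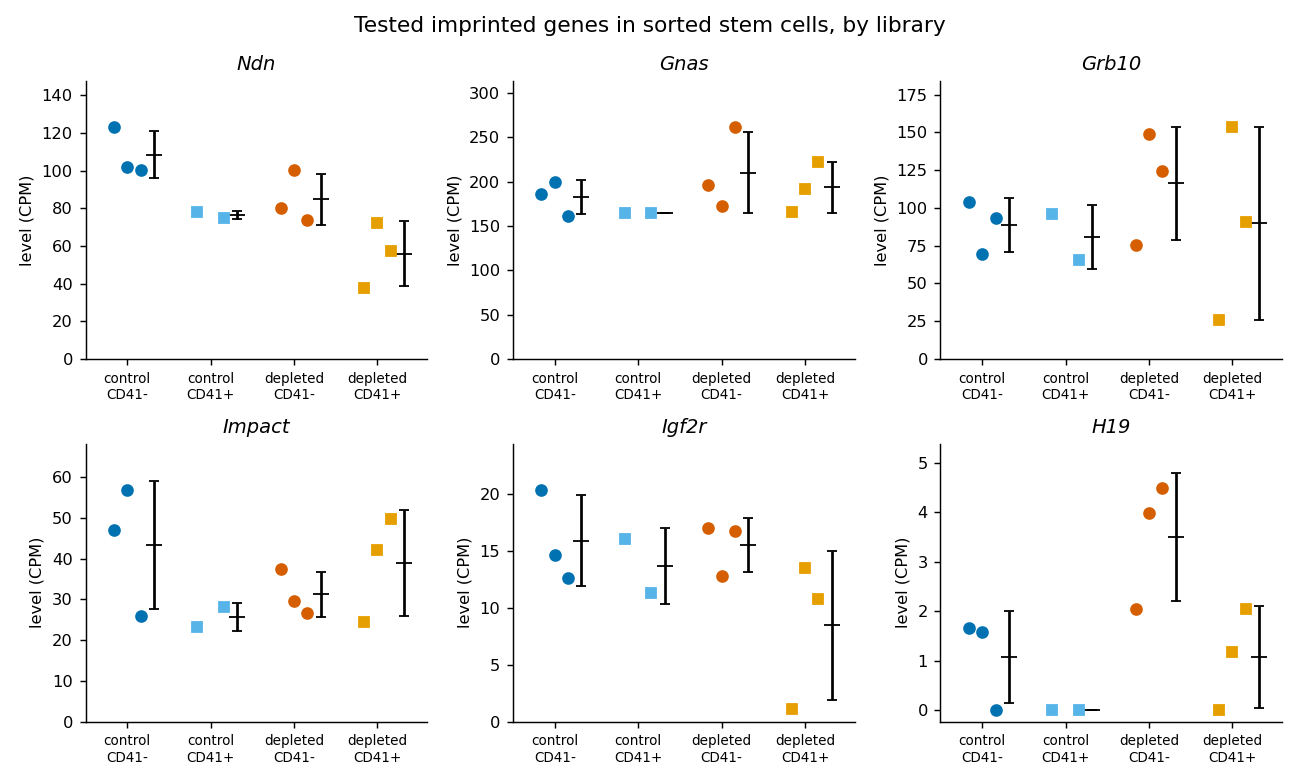
Level in CPM (y axis) of the 6 tested members in each library (points) of the 4 groups (x axis), with the group mean ± SD in black (n = 3, 2, 3 and 3). For Ndn the CD41+ libraries lie below the CD41- libraries within each treatment, while the groups of Grb10, Impact and Igf2r overlap.

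Ndn (ENSMUSG00000033585, chromosome 7, 62346569 to 62350262, plus strand), the gene of necdin, had the most regular pattern. Its level was 122.9, 102.1 and 100.4 CPM in control CD41- libraries and 78.0 and 75.1 CPM in control CD41+ libraries. In depleted mice it was 80.0, 100.1 and 74.0 CPM in CD41- and 37.8, 72.3 and 57.4 CPM in CD41+ libraries. Every CD41+ library was below every CD41- library of the same treatment, and every depleted library was below every control library of the same fraction. Of the 13448 genes, 3.77% were lower in CD41+ cells with no overlap in both treatments, and 0.892% (120 genes) were in addition lower after depletion with no overlap in both fractions. Both shares count the directions seen for Ndn alone, so genes as regular in other directions are left out. Control and depleted CD41- libraries came as close as 100.4 and 100.1 CPM.

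The group means of Ndn were 108.5 ± 12.5 (SD, n = 3), 76.6 ± 2.08 (n = 2), 84.7 ± 13.7 (n = 3) and 55.8 ± 17.3 CPM (n = 3) in the order control CD41-, control CD41+, depleted CD41- and depleted CD41+. CD41+ cells differed from CD41- cells by -0.53 ± 0.16 on the log2 scale on average (edgeR adjusted p = 0.0726). Control mice alone gave -0.50 ± 0.24 (adjusted p = 0.280), and depleted mice alone gave -0.56 ± 0.22 (adjusted p = 0.431). None of these passed the threshold. The average passed with DESeq2 (-0.50, adjusted p = 0.0321), without the filter on low counts (adjusted p = 0.0427) and without depleted CD41+ replicate 2 (-0.64, adjusted p = 0.0389). No other fit that left out 1 library passed, and over all such fits the difference ran from -0.64 to -0.43. Other settings of edgeR gave an adjusted p of up to 0.0735. Depleted mice differed from controls by -0.39 ± 0.16 on average (adjusted p = 0.184).

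The share of counts in stem cell markers, given above, also ranged highest in control CD41- and lowest in depleted CD41+ libraries. Control CD41- libraries stood apart, while the ranges of the other groups, depleted CD41+ included, overlapped. Of these 8 markers 4 fell, 1 rose and 3 did not pass in CD41+ cells on average. Hlf, a transcription factor of stem cells, fell by 1.42 ± 0.17 on the log2 scale (edgeR adjusted p = 0.000928), as did Procr, Ly6a and Fgd5, while Slamf1, which encodes the sort marker CD150, rose by 0.75 ± 0.19 (adjusted p = 0.0362). Whether the stem cell content of the sorts has a part in the Ndn values was not tested. The genes whose log2 CPM followed Ndn most closely over the 11 libraries were Nudt16 (r = 0.986), a nucleotide hydrolase, Cirbp (r = 0.983), the cold-inducible RNA-binding protein, and Arap1 (r = 0.971), a GTPase-activating protein. They were found among 10810 genes whose mean reached 5 CPM, and the libraries share group and depth, so r is a description.

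Partners of necdin, Peg3 and Plagl1 gave no call. Of 12 listed genes 10 were tested, and edgeR called 0 in each of the 6 comparisons of groups. Maged1, a relative of necdin in the MAGE family, was at -0.43 ± 0.15 on the log2 scale for CD41+ minus CD41- on average (adjusted p = 0.101). E2f4, an E2F protein of resting cells, was at 0.72 ± 0.21 for depleted minus control on average (adjusted p = 0.0587). The median log2 difference of the 10 was 0.00 for CD41 and 0.33 for depletion on average, against -0.03 and -0.01 over all genes tested.

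**Figure D2:**
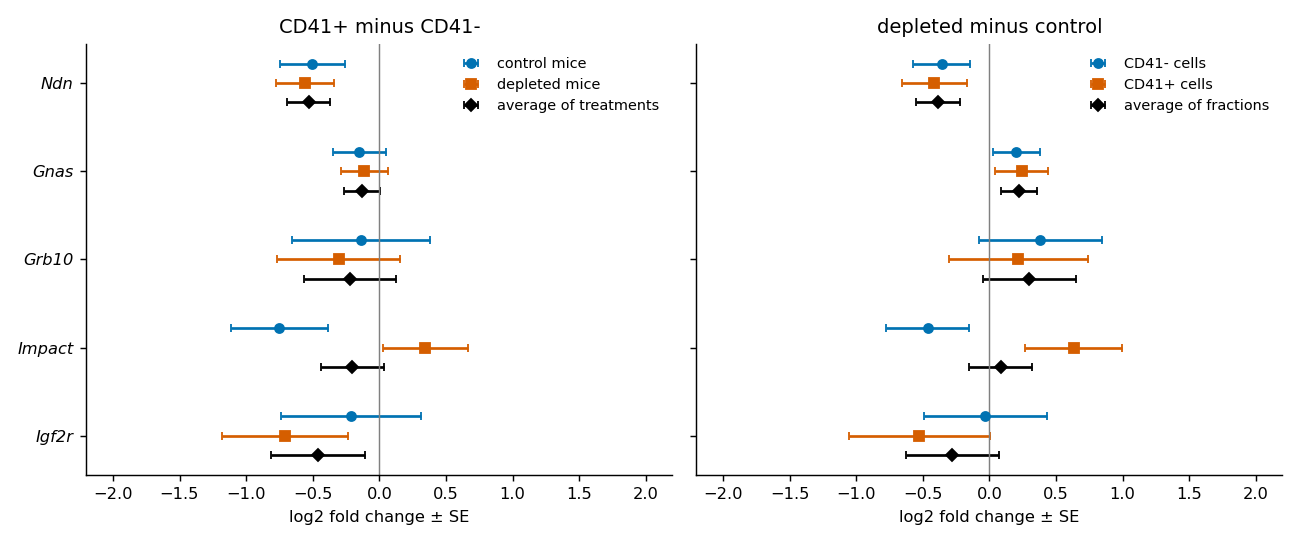
Log2 fold change ± SE (x axis) of 5 tested members (y axis) between CD41+ and CD41- cells (left) and between depleted and control mice (right), in single groups (blue circles, orange squares) and on average (black diamonds). None passed the adjusted threshold; Ndn lies below 0 in each comparison drawn, and Impact is on opposite sides of 0 in control (-0.75) and depleted mice (0.35). H19 is left out because a group without counts gives its fitted change no fixed size.

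H19 (ENSMUSG00000000031, chromosome 7, 142575529 to 142578143, minus strand) was scarce and was seen mostly in CD41- cells. Its deposited counts were 6, 6 and 0 in control CD41- libraries and 0 and 0 in control CD41+ libraries. After depletion they were 20, 19 and 19 in CD41- and 0, 6 and 7 in CD41+ libraries. Depleted CD41- libraries, through which H19 passed the filter, were between 2.04 and 4.49 CPM and control CD41- libraries between 0 and 1.65 CPM. Of all tested genes 12.9% were higher after depletion in CD41- cells with no overlap of libraries, so this gap is a description.

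Summed over the libraries of both fractions and divided by their summed totals, H19 was 4.05-fold higher in depleted than in control mice, from 71 and 12 counts. Within CD41- cells it was 2.91-fold higher, from 58 and 12 counts. In CD41+ cells alone, 13 counts after depletion against 0 in controls put it at least 3.68-fold higher, with the floor of 3 counts taken over the control group. In control mice CD41- cells, with 12 counts, were at least 2.87-fold above CD41+ cells. None of these passed the edgeR test over the filtered genes, where the adjusted p was 0.0991 for depletion and 0.124 for CD41 on average. Without the filter both passed, at adjusted p = 0.0313 and 0.0473, in fits that called 5.32% and 6.67% of 25098 genes. H19 entered the filtered fit through its high group alone, and control CD41+ cells had 0 counts. All these p are therefore descriptions.

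Igf2 (ENSMUSG00000048583, chromosome 7, 142650766 to 142666816, minus strand) did not pass the filter. It had 5, 2 and 5 counts in control CD41- and 16, 1 and 4 in depleted CD41- libraries, against 0 and 0 in control CD41+ and 0, 2 and 0 in depleted CD41+ libraries. All 6 CD41- libraries thus held a read and 1 of 5 CD41+ libraries did, with 33 and 2 counts in sum. In the edgeR fit without a filter the CD41 average of Igf2 did not pass (adjusted p = 0.115).

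H19 and Igf2 thus had more counts in CD41- than in CD41+ cells. Connective tissue cells can also read both genes, so markers of those cells were set beside them. The 14 stromal and endothelial markers made up 0.0157% to 0.0221% of counts in control CD41- libraries, where Kitl, Ibsp and Col3a1 were at 0, and 0.0245% to 0.0436% in control CD41+ libraries. In depleted mice they made up 0.0127% to 0.0469% in CD41- and 0.0456% to 0.0743% in CD41+ libraries. The marker share thus ranged higher in the CD41+ groups, where H19 and Igf2 had fewer counts, with overlap in depleted mice. Of the 12 markers tested in edgeR, 5 (Cldn5, Ibsp, Kitl, Lepr and Sparc) rose and 1 (Emcn) fell in CD41+ cells on average. Between depleted and control mice 12 of these markers were tested and 0 passed in edgeR, but their median log2 difference was 1.08 in CD41- cells and 1.09 on average, against -0.03 and -0.01 over all genes, in the direction of the H19 counts. The part of such cells in the H19 and Igf2 counts was not tested.

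**Figure D3:**
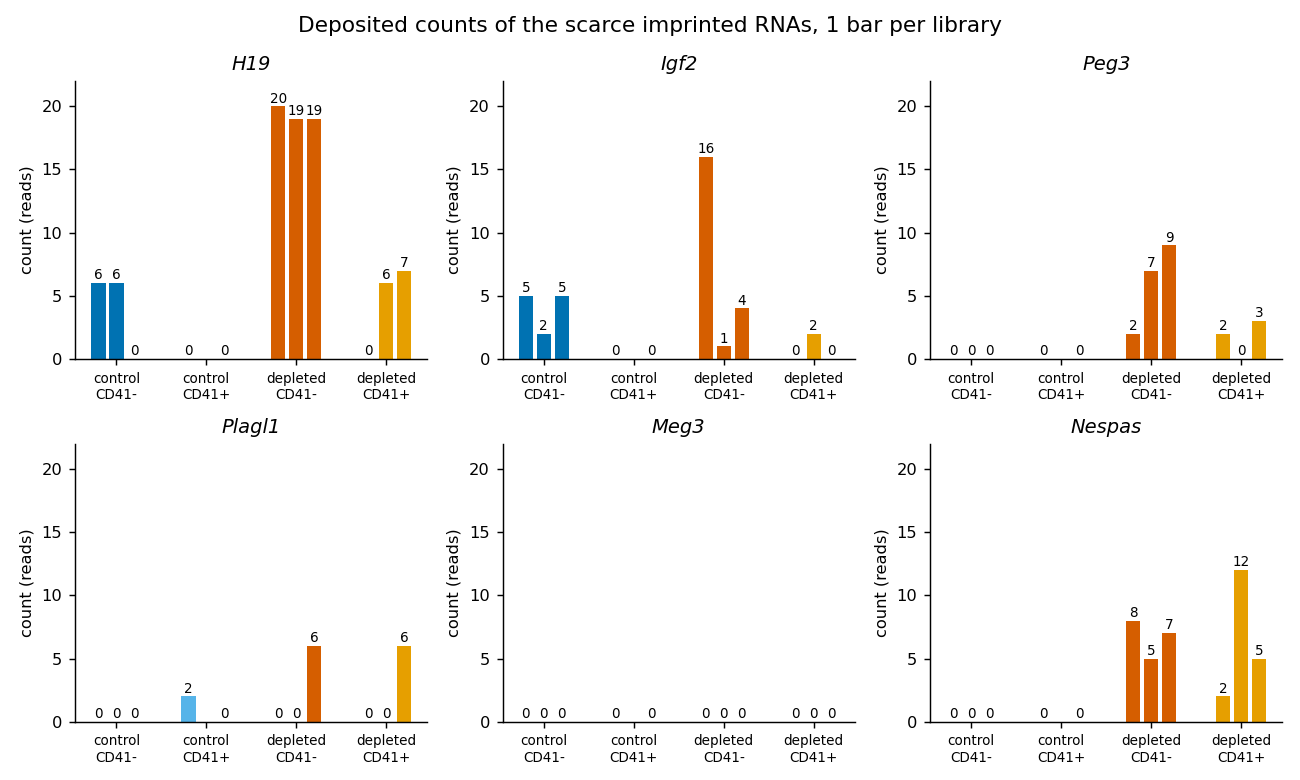
Deposited read counts (y axis) of 5 scarce members and of Nespas in the 11 libraries (bars, grouped by the 4 groups on the x axis), not scaled for depth, which ran from 0.974 M to 9.95 M. Peg3 and Nespas had 0 counts in all 5 control libraries, H19 was highest in depleted CD41- libraries, and Meg3 was 0 throughout.

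Igf2r (ENSMUSG00000023830, chromosome 17, 12682406 to 12769664, minus strand), the receptor that clears IGF2, was read in every library. It was at 20.4, 14.7 and 12.6 CPM in control CD41-, 16.0 and 11.4 in control CD41+ and 17.0, 12.8 and 16.8 in depleted CD41- libraries. Depleted CD41+ libraries were at 1.11, 13.5 and 10.8 CPM, the first being 1 read in the library of 0.974 M counts. All groups overlapped. The CD41 average was -0.46 ± 0.35 on the log2 scale (edgeR adjusted p = 0.461) and the depletion average was -0.28 ± 0.35 (adjusted p = 0.707). Airn, the antisense RNA that silences the paternal copy of Igf2r, shares no exon base with it and had 61 counts in 5 of the 11 libraries, 27 of them in control CD41- replicate 3.

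Among 16 other genes of the IGF system 12 were tested, and 2 rose in CD41+ cells on average while 0 fell. Over all tested genes 5.38% were called in that comparison. Igfbp2 and Igfbp3 encode binding proteins that carry IGFs in blood and tissue. Igfbp2 had 0 counts in the 3 control CD41- libraries, 1 and 13 in control CD41+, 9, 3 and 1 in depleted CD41- and 20, 22 and 14 in depleted CD41+ libraries (edgeR adjusted p = 0.0221). Igfbp3 had 0 counts in control CD41-, 6 and 18 in control CD41+, 7, 0 and 17 in depleted CD41- and 2, 30 and 55 in depleted CD41+ libraries (adjusted p = 0.0383). The stromal marker share, given above, also ranged higher in CD41+ groups, and its part in these values was not tested. The Igfbp2 call needed control CD41+ replicate 2 and depleted CD41- replicate 2 (adjusted p of up to 0.228 without them), and that of Igfbp3 was lost in 8 of the 11 fits that left out 1 library, with an adjusted p of up to 0.132. Igf1r, the signalling receptor for IGF2, was at 75.8 ± 15.4 CPM (SD, n = 3) in control CD41- and 38.5 ± 1.51 CPM (n = 2) in control CD41+ cells, and its CD41 average of -0.71 ± 0.25 did not pass (adjusted p = 0.114). The median log2 difference of the 12 was 0.45 for CD41 and 0.33 for depletion on average, against -0.03 and -0.01 over all genes.

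Peg3 (ENSMUSG00000002265, chromosome 7, 6703892 to 6730431, minus strand) was read in depleted mice alone. It had 0 counts in each of the 5 control libraries, 2, 7 and 9 in depleted CD41- and 2, 0 and 3 in depleted CD41+ libraries. The 23 counts after depletion put it at least 5.25-fold above controls, with the floor of 3 counts taken over the 5 control libraries. Of 25098 entries with any count, 27 (0.108%) had no count in the 5 controls and a count in at least 5 of the 6 depleted libraries, and Peg3 was among them. It did not reach the filter. In the fit without a filter, which called 5.32% of 25098 genes, edgeR gave an adjusted p of 0.0401 for the depletion average. Peg3 enters that fit through its counts in depleted mice alone, so this p is a description. Over the 19.2 M counts of the controls, 0 reads allow up to 0.156 CPM, against 0.818 CPM over the 28.1 M counts after depletion. The stromal and endothelial markers also had positive median differences with depletion, given above, and depleted CD41- replicate 3, with 9 counts of Peg3, had the highest marker share of the CD41- libraries (0.0469%). Their part in the Peg3 counts was not tested.

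Plagl1 (ENSMUSG00000019817, chromosome 10, 13060504 to 13131694, plus strand) had 14 counts in all. They were 2 in control CD41+ replicate 1, 6 in depleted CD41- replicate 3 and 6 in depleted CD41+ replicate 3, with 0 in the other libraries. Meg3 (ENSMUSG00000021268, chromosome 12, 109541001 to 109571726, plus strand) had 0 counts in all 11 libraries, which over 47.4 M counts allows up to 0.0633 CPM. Meg3 shares 1228 exon bases with Gm26906 on the opposite strand, which also had 0 counts.

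The other genes of the imprinted growth network gave few calls. Of 10 listed genes 7 were tested, and 1, Dcn, rose in CD41+ cells on average while 0 fell, where 5.38% of all tested genes were called. Dcn encodes decorin, a matrix proteoglycan of connective tissue. It was at 0 to 0.785 CPM in control CD41-, 0.774 and 6.95 in control CD41+, 0 to 1.42 in depleted CD41- and 1.76 to 38.5 CPM in depleted CD41+ libraries (edgeR log2 3.83 ± 0.93, adjusted p = 0.0322). That call was lost in 7 of 11 fits without 1 library. The stromal marker share, given above, also ranged higher in CD41+ groups, and its part in the Dcn values was not tested. Cdkn1c, the cyclin-dependent kinase inhibitor p57 that holds stem cells in quiescence, was at 9.63 ± 5.64 CPM (SD, n = 3) in control CD41- and 4.24 ± 3.08 (n = 2) in control CD41+ cells, with 6.05 ± 4.23 (n = 3) and 5.97 ± 4.28 (n = 3) after depletion, and its groups overlapped (CD41 average -0.52 ± 0.52, adjusted p = 0.585). For depletion 0 of the 7 were called, and their median log2 difference was 0.02 on average, and -0.15 for CD41.

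Gnas (ENSMUSG00000027523, chromosome 2, 174284320 to 174346744, plus strand), the source of the stimulatory G protein alpha subunit, had the steadiest level. It was at 185.9, 199.7 and 161.5 CPM in control CD41-, 164.1 and 164.4 in control CD41+, 196, 173 and 261.1 in depleted CD41- and 165.7, 192.1 and 222.6 in depleted CD41+ libraries. Depleted CD41+ libraries were all above control CD41+ libraries, as in 13.2% of tested genes, by as little as 165.7 against 164.4 CPM. The depletion average was 0.22 ± 0.13 on the log2 scale (edgeR adjusted p = 0.365) and the CD41 average was -0.13 ± 0.13 (adjusted p = 0.594). The 95% interval of the depletion average ran from -0.04 to 0.49.

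Counts at Gnas stood on models of both strands. Gm20721, a gene model on the minus strand, shares 1469 of its 1484 exon bases with Gnas, and it had 8685 counts against 9101 for Gnas. The ratio was between 0.883 and 1.06 in each of the 11 libraries, and, with the strand setting not stated, transcripts of the opposite strands cannot be told apart. With both models summed, a setting added after the data were seen, the depletion average was 0.19 ± 0.13 and the CD41 average was -0.12 ± 0.13, and neither was called. Gm20721 was also the gene most like Gnas over the 11 libraries (r = 0.940), followed by Ppp1cc (r = 0.870), a protein phosphatase subunit, and Tmsb10 (r = 0.864), an actin-binding peptide.

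**Figure D4:**
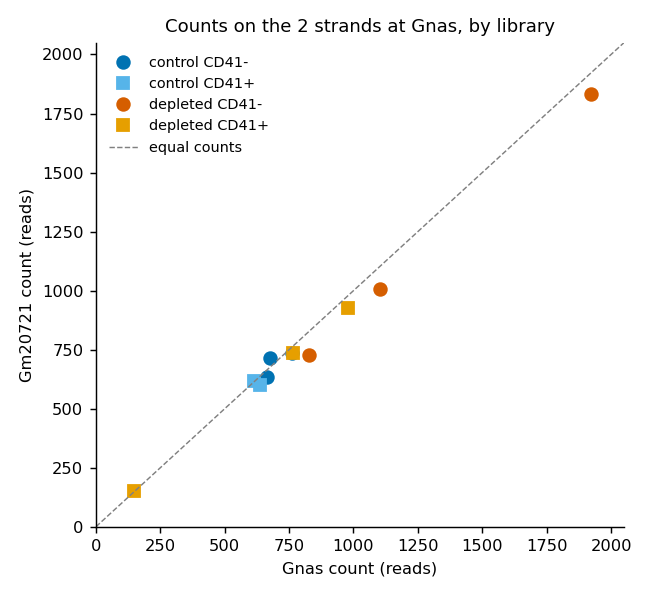
Deposited counts of Gm20721, on the minus strand (y axis), against those of Gnas, on the plus strand (x axis), in the 11 libraries (points, coloured by group), with a dashed line of equal counts. Libraries lie along the line, with ratios from 0.883 to 1.06.

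Nespas, the antisense RNA that helps set the imprint of the Gnas locus, was read in depleted mice alone. It was picked after its values were seen, with 0 counts in the 5 control libraries, 8, 5 and 7 in depleted CD41- and 2, 12 and 5 in depleted CD41+ libraries. The 39 counts put it at least 8.90-fold above controls, and it belonged with Peg3 to the 27 entries seen in at least 5 of the 6 depleted libraries and no control. Since it was chosen for this pattern, its values are a description. Nespas shares 988 exon bases with Gnas on the opposite strand, so its reads could come from either strand of those exons.

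Among 30 other genes of G protein and cyclic AMP signalling 27 were tested. In control mice 2 fell in CD41+ cells and 0 rose, and the same 2 were called on average, where 2.62% and 5.38% of all tested genes were called. They were Creb1, the transcription factor that binds cyclic AMP response elements (edgeR log2 -1.31 ± 0.25 in control mice, adjusted p = 0.0146), and Gnaq, the alpha subunit of another G protein class (-2.06 ± 0.43, adjusted p = 0.0236). Creb1 in control mice was not called when either control CD41+ library was left out, which leaves that group with 1 library, though its log2 difference stayed between -1.44 and -1.17. Gnaq was not called when control CD41- replicate 3 or control CD41+ replicate 2 was left out, with differences between -2.84 and -1.54. With depletion Prkar2a, a regulatory subunit of protein kinase A, rose by 1.41 ± 0.36 on average (adjusted p = 0.0352), a call lost in 7 of 11 fits without 1 library. The median log2 difference of the 27 was -0.18 for CD41 and -0.17 for depletion on average, against -0.03 and -0.01 over all genes.

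Grb10 (ENSMUSG00000020176, chromosome 11, 11930508 to 12038683, minus strand), the adaptor that damps insulin and IGF1 receptors, varied widely within groups. It was at 104, 69.4 and 93.2 CPM in control CD41-, 95.9 and 65.5 in control CD41+, 75.4, 148.9 and 124 in depleted CD41- and 25.6, 153 and 90.6 in depleted CD41+ libraries. The lowest and the highest value of all both came from depleted CD41+ cells, and all groups overlapped. The CD41 average was -0.22 ± 0.35 on the log2 scale (edgeR adjusted p = 0.753), and the depletion average was 0.30 ± 0.35 (adjusted p = 0.678), with a 95% interval from -0.38 to 0.98 that leaves room for a change of either sign. The genes most like it over the 11 libraries were Ift140 (r = 0.945), a ciliary transport protein, Tgfbr3 (r = 0.937), a TGF-beta co-receptor, and Med12 (r = 0.937), a Mediator subunit.

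Impact (ENSMUSG00000024423, chromosome 18, 12955852 to 12992950, plus strand), the inhibitor of GCN2, showed opposite differences by treatment. Control CD41- libraries were at 47.0, 56.8 and 26.0 CPM and control CD41+ libraries at 23.2 and 28.1 CPM. Depleted CD41- libraries were at 37.5, 29.5 and 26.7 CPM and depleted CD41+ libraries at 24.5, 42.1 and 49.8 CPM. CD41+ minus CD41- was -0.75 ± 0.36 on the log2 scale in control mice (edgeR adjusted p = 0.279) and 0.35 ± 0.32 after depletion (adjusted p = 0.820), and the groups overlapped in both. The difference of these responses was 1.10 ± 0.48 (unadjusted p = 0.0385, adjusted p = 0.774). No gene of 13448 passed that comparison in edgeR, where 825 (6.13%) were at an unadjusted p under 0.05 and DESeq2 called 35 (0.26%), Impact not among them.

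In the GCN2 branch of the stress response, which senses uncharged tRNA, 10 of 11 listed genes were tested. On the CD41 average 2 rose, 1 fell and 7 did not pass, where 5.38% of all tested genes were called. Asns, the enzyme of asparagine synthesis that the pathway induces, rose by 0.86 ± 0.16 (edgeR adjusted p = 0.00951), and Eif2s1, the substrate of GCN2, rose by 0.79 ± 0.13 (adjusted p = 0.005). Trib3, another induced gene, fell by 1.30 ± 0.32 (adjusted p = 0.030), a call lost in 6 of 11 fits without 1 library. With depletion Asns rose by 0.91 ± 0.22 in CD41- cells (adjusted p = 0.0385) and by 0.62 ± 0.17 on average (adjusted p = 0.0425), calls lost in 4 and 9 of 11 such fits. Eif2ak4, the gene of GCN2 itself, was at -0.35 ± 0.27 for CD41 (adjusted p = 0.456) and 0.19 ± 0.27 for depletion on average (adjusted p = 0.737). The median log2 difference of the 10 was -0.23 for CD41 and 0.25 for depletion on average. The transcript most like Impact over the 11 libraries was Slc7a5 (r = 0.813), a transporter of large amino acids.

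Imprinted genes beyond the members showed calls in both contrasts. Of 51 further imprinted genes 28 were tested. On the CD41 average 1 rose, 1 fell and 26 did not pass, and on the depletion average 1 rose, 3 fell and 24 did not pass. Over all tested genes edgeR called 5.38% and 6.33% in the same order. The median log2 difference of the 28 was -0.05 for CD41 and -0.32 for depletion, against -0.03 and -0.01 over all genes.

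Kcnq1ot1, the antisense RNA that silences its neighbours on chromosome 7, was higher in control CD41- cells than in any other group. It was at 95.4, 120.1 and 105.6 CPM there, against 14.7 and 5.68 in control CD41+, 60.4, 13.8 and 37.6 in depleted CD41- and 6.67, 13.7 and 20.1 in depleted CD41+ libraries. It fell in CD41+ cells by 3.39 ± 0.60 on the log2 scale in control mice (edgeR adjusted p = 0.0131) and by 2.38 ± 0.38 on average (adjusted p = 0.00521). The first call was lost without control CD41+ replicate 2 (adjusted p = 0.124). Reads of the opposite strand cannot be told apart from it. Slc22a3, an organic cation transporter near Igf2r, rose in CD41+ cells by 1.08 ± 0.23 on average (adjusted p = 0.0151), from 46.1 ± 7.75 to 88.6 ± 3.49 CPM in control mice and from 28.6 ± 8.40 to 68.2 ± 26.7 CPM in depleted mice.

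Peg13, a non-coding RNA within Trappc9, fell with depletion by 1.83 ± 0.37 in CD41- cells (edgeR adjusted p = 0.0154) and by 1.30 ± 0.28 on average (adjusted p = 0.0159). It was at 29.7, 24.3 and 27.7 CPM in control CD41- and 6.11, 9.84 and 7.09 CPM in depleted CD41- libraries. In CD41+ libraries it was at 18.2 and 9.29 CPM in controls and 6.67, 10.98 and 5.83 CPM after depletion, and these overlapped. Without depleted CD41- replicate 1 neither call passed, and the first also needed depleted CD41- replicate 3 and the second control CD41+ replicate 1.

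Tspan32, a tetraspanin of blood cells, fell with depletion by 0.59 ± 0.11 on average (edgeR adjusted p = 0.00609), from 504 ± 17.3 to 381 ± 44.8 CPM in CD41- and from 634 ± 91.2 to 369 ± 20.7 CPM in CD41+ cells. Blcap, a small membrane protein, fell by 0.55 ± 0.14 (adjusted p = 0.0309), and Commd1, a copper and endosome trafficking protein, rose by 0.65 ± 0.15 (adjusted p = 0.0204). The Blcap call was lost in 6 and the Commd1 call in 4 of the 11 fits without 1 library.

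**Figure D5:**
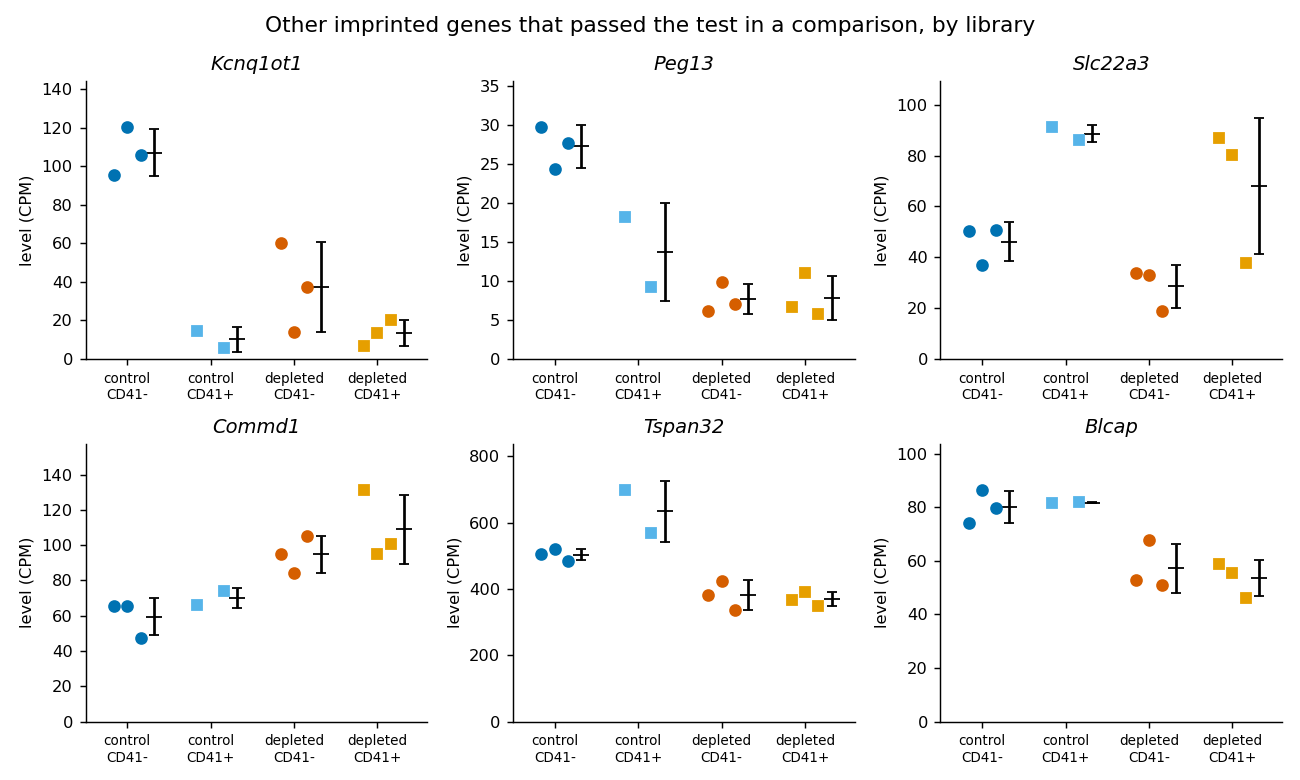
Level in CPM (y axis) of the 6 further imprinted genes that passed the test in a comparison, in each library (points) of the 4 groups (x axis), with mean ± SD in black. Kcnq1ot1 is highest in control CD41- libraries (95.4 to 120.1 CPM) and Peg13 is lower in depleted than in control CD41- libraries.

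Genes that keep imprints through cell division were compared in the same way, with 15 of 17 tested. In control mice 1 rose and 4 fell in CD41+ cells, where 2.62% of all tested genes were called. Uhrf1, which brings the maintenance methyltransferase to newly copied DNA, rose by 1.07 ± 0.26 (edgeR adjusted p = 0.0433), while Dnmt3a, a methyltransferase of stem cells, fell by 1.36 ± 0.29 (adjusted p = 0.024). Atrx, a chromatin remodeller, fell by 1.30 ± 0.24 (adjusted p = 0.0141), and Arid4a and Arid4b, chromatin-binding proteins, fell by 1.67 ± 0.33 (adjusted p = 0.0185) and 1.23 ± 0.26 (adjusted p = 0.024). On the CD41 average Atrx, Arid4a and Arid4b were called and 12 did not pass. With depletion Uhrf1 rose by 1.05 ± 0.24 in CD41- cells (adjusted p = 0.0273) and Hells, a helicase of DNA methylation, rose by 0.62 ± 0.15 on average (adjusted p = 0.0227). With 1 library left out, the Uhrf1 calls were lost in 8 of 11 fits for CD41 and 4 for depletion, the CD41 calls in control mice in 4 for Arid4a and for Arid4b, 3 for Dnmt3a and 2 for Atrx, and that of Hells in 5. On the CD41 average the calls were lost in 8 fits for Arid4b, 2 for Arid4a and 1 for Atrx. The median log2 difference of the 15 was -0.15 for CD41 and 0.22 for depletion on average.

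Of 33 calls among these lists, from 21 genes, 5 passed in all 11 fits that left out 1 library each, and these were Kcnq1ot1, Slc22a3, Asns and Eif2s1 on the CD41 average and Tspan32 on the depletion average. The other 28 kept their sign in all 11 fits but did not pass without at least 1 library, in fits that also hold fewer samples.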

How the data were processed

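RNA of sorted stem cells was reverse transcribed with poly-dT primers and template switching, amplified over 17 cycles, tagmented and indexed over 12 cycles, per the labels' protocols. The deposited values are raw counts per gene, made with cutadapt, STAR and HTSeq 0.6.1p1 against GRCm38 (mm10), per the submitters' processing notes. Neither the strand setting of the counting nor its annotation release is stated (not given in the sources used here). Identifiers were matched to GENCODE M21 (49326 of 49585).

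Genes were kept by filterByExpr (minimum count 10, total 15), and the 13448 genes tested hold 99.7% of all counts. Libraries were scaled by TMM and fitted in edgeR 4.0.16 (R 4.3.3, quasi-likelihood, robust, 4 groups, 11 libraries). The 7 comparisons are those of CD41 in control, depleted and all mice, of depletion in CD41-, CD41+ and all cells, and their interaction. SE was derived from the F statistic as |log2 fold change| divided by its root, and intervals are 1.96 SE wide on each side. Genes were to be named as all members, all called genes of each list and otherwise those with the smallest p, and the 3 genes most like each tested member. Nespas, Airn, Hlf, Cdkn1c and Eif2ak4 fall outside that rule and were added after their values were seen. Members and lists were chosen with earlier results of these data known. Replicate numbers follow the order of deposit, and libraries of a group share no stated batch. Nothing in the labels says whether the pools of a group were sorted on separate days, so p-values measure the spread between pools. Other settings tried were DESeq2 1.42.0, no filter, RLE factors, unadjusted library sizes, fits limited to the compared groups, a block by neighbouring title numbers, and each library left out in turn. The procedure was tested on simulated data. Figures were drawn with matplotlib.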

Additional observations from a re-analysis of the deposited data

How the results depend on the processing

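For the CD41 average the 6 tested members gave 0 calls, against 2 without the filter on low counts (H19 and Ndn), 1 with DESeq2 (Ndn) and 0 to 1 when 1 library was left out. For the depletion average they gave 0 calls. Without the filter, which lets in the members that had not been tested, there were 2 (H19 and Peg3). Calls of Peg3, and of H19 here and for CD41, are descriptions, for the reasons given above. H19 has no adjusted p for the depletion average in DESeq2. In the other 5 comparisons 0 members were called under each alternative run. A block of consecutive title numbers gave 1 call in the CD41 average (Ndn, -0.57, adjusted p = 0.0322). Labels state no pairing, so the numbers were not taken as pairs. Deviations of same-numbered libraries correlated at 0.0801 and 0.0977 in controls and 0.228, 0.343 and 0.207 in depleted mice. These were not set against libraries of different numbers, so whether both fractions came from the same pools was not tested. The block could not be fitted for depletion.

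Sign changes occurred among results that were not called, and the cause was not tested. Igf2r for depletion in CD41- cells was -0.03, and 0.0074 without the filter. The Ndn difference of responses was -0.06, and 0.015 with library size alone. When 1 library was left out, Igf2r ranged from -0.45 to 0.016 for CD41 in control mice and from -0.17 to 0.19 for depletion in CD41- cells. Grb10 ranged from -0.41 to 0.11 for CD41 in control mice, from -0.90 to 0.080 in depleted mice, from -0.38 to 0.59 for depletion in CD41+ cells and from -0.76 to 0.20 for the difference of responses. That difference ranged from -0.29 to 0.11 for Ndn and from -0.081 to 0.23 for Gnas. Gnas ranged from -0.23 to 0.074 for CD41 in depleted mice, and Impact from -0.046 to 0.21 for the depletion average. Without depleted CD41- replicate 2 or 3 H19 did not pass the filter. Of all member results under alternatives, 639 kept sign and side of the threshold, 6 passed it and 22 changed sign.

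Depth limits the scarce members: a floor of 3 counts is 0.302 to 3.08 CPM per library, so Peg3, Plagl1, Igf2 and Meg3 rest on sums over groups.

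Calls over all genes depended more on the setting. Leaving out 1 library gave 48 to 545 calls for CD41 in control mice (352 with all libraries), 5 to 32 in depleted mice (26) and 300 to 788 on average (724). For depletion it gave 169 to 560 calls in CD41- cells (429), 0 to 57 in CD41+ cells (14) and 291 to 1060 on average (851). Across the other settings the same counts ran from 143 to 1142, 23 to 387, 695 to 1674, 377 to 862, 0 to 317 and 802 to 1403, and the difference of responses from 0 to 178.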
